A study of Mus musculus with 8 samples.

Results

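The question was whether nutrient restriction with retinoic acid (NRRA) changed the same genes, and by as much, in mouse SSC cultures that lack STRA8 and in cultures labelled as lacking SPO11. The measure is the interaction, on the log2 scale: the change from Veh to NRRA with the STRA8KO label, less that with the SPO11KO label. All 8 samples of the series entered it, and it was tested for 20588 of the 55421 genes in the count table. A positive interaction means that NRRA left the gene higher in STRA8KO than the effect in SPO11KO would have, and a negative one that it left the gene lower.

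SSC cultures are primary cultures of spermatogonia, derived here from testes of 6-day-old pups of the C57BL/6XDBA/2 background (F1 hybrids in the study's methods) and grown in medium with N2 supplement, bFGF and GDNF, where the labels and the study's medium list differ on the GDNF concentration. The groups were STRA8KO Veh, STRA8KO NRRA, SPO11KO Veh and SPO11KO NRRA, with 2 libraries each. NRRA lasted 48 h, Veh is the vehicle control (the source names and treatment labels separate Veh from NRRA, although the protocol field reads NRRA for every sample), and wild-type cultures were not analysed here. By the study's medium list, NRRA medium is culture medium mostly replaced by a balanced salt solution, with retinoic acid added. GDNF, bFGF and the other supplements were thus diluted under NRRA, and the part of this dilution in the results was not tested. All cultures stood on a layer of mouse embryonic fibroblasts, whose RNA is part of every library. The study describes its sequencing replicates as biologically independent, the labels do not tie a library to a culture or an animal, and p-values measure the spread between the 2 libraries of a group. That spread was small, with a common coefficient of variation between replicates, beyond counting noise, of 3.39%. A difference between the genotypes cannot be told apart here from a difference between the culture lines that carried them.

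Retinoic acid binds nuclear receptors and switches on Stra8, which encodes a factor that acts together with MEIOSIN to raise meiotic genes at the end of the spermatogonial stage. GDNF and FGF act in the opposite direction, since their signals through the receptors GFRA1 and RET and through ERK keep undifferentiated spermatogonia dividing without differentiating. SPO11 makes the DNA breaks of meiosis and acts after meiotic entry, so the cultures labelled SPO11KO serve here as the arm in which Stra8 itself is intact.

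The disrupted genes come first, as a check of the labels. Stra8 (ENSMUSG00000029848, chromosome 6) was almost absent from STRA8KO Veh, at 2 and 0 reads, and reached 169 and 170 reads after NRRA. The vehicle libraries labelled SPO11KO held 28 and 12 reads and their NRRA counterparts 12604 and 16191. All 4 STRA8KO libraries thus lay far below the NRRA libraries labelled SPO11KO, although NRRA raised the remaining transcript at least 52.97-fold over the floor of 3 counts. Because STRA8KO Veh was at that floor, the fitted interaction of Stra8 is no measure of size (edgeR adjusted p = 0.462). Spo11 (ENSMUSG00000005883, chromosome 2) gave 32 and 31 reads before and 68 and 66 reads after NRRA with the STRA8KO label, and 72 and 75 reads before and 148 and 127 reads after it with the SPO11KO label. Its transcript was thus not lower where the label says SPO11KO, so read counts do not check that label, and the cultures are called labelled SPO11KO from here on. By staining, the study reports no foci of the recombinase DMC1 in its Spo11-deficient cultures after NRRA, which the counts cannot show. The interaction of Spo11 was 0.42 (SE 0.318) and was not called (edgeR adjusted p = 0.388).

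Library totals ran from 20960794 to 27038868 counts, the 10 largest genes took 4.48% to 5.99% of a library, and no library stood apart from its replicate. The fibroblast share of the RNA differed between the genotypes. Summed over 16 fibroblast markers, it was 2.61% and 2.68% for STRA8KO Veh and 4.45% and 4.40% for STRA8KO NRRA, and with the SPO11KO label 1.49% and 1.49% for Veh and 2.67% and 2.58% for NRRA. The 8 pan-germ genes, which mark germ cells of all stages, took 0.0737% and 0.0742%, 0.0908% and 0.0866%, 0.163% and 0.167%, and 0.204% and 0.208% in the same order. STRA8KO libraries thus held more fibroblast and less germ cell RNA in both media. In such bulk samples, fewer cells of a type and less RNA per cell cannot be told apart.

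The interaction was called for 5094 genes, 24.7% of those tested, at an adjusted p under 0.05 in edgeR's quasi-likelihood test. It was higher in STRA8KO for 3014 genes (14.6%) and lower for 2080 (10.1%). This split depended on the scaling, since 2669 were higher and 2426 lower with DESeq2 size factors and 2160 higher and 3415 lower with total counts, where the median interaction of all genes moved from 0.01 to -0.08. An interaction of at least 2-fold was called for 1158 genes (5.62%), 800 higher (3.89%) and 358 lower (1.74%), and here the higher side was the larger under total counts too, with 704 and 447. The called interactions had a median size of 0.49 (log2), against a median SE of 0.0989. With each library left out in turn, between 3897 and 4767 genes were called.

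**Figure D1:**
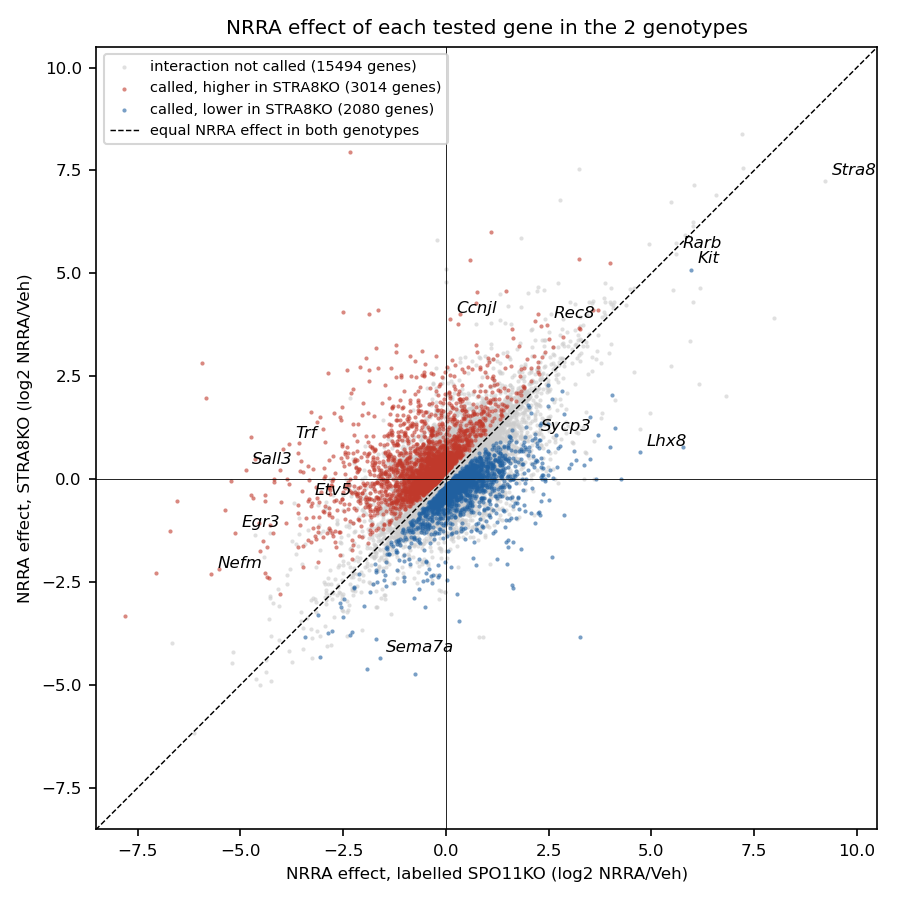
Each point is 1 of the 20588 tested genes, with the NRRA effect (log2 NRRA over Veh) in the cultures labelled SPO11KO on the horizontal axis and that in STRA8KO on the vertical axis. Genes above the dashed line responded more positively in STRA8KO, and the 3014 called ones are red, while the 2080 called ones below the line are blue.

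The called genes were sorted by what NRRA did in each genotype (over all tested genes it raised 21.4% and lowered 20.1% in STRA8KO, and raised 24.7% and lowered 25.5% with the SPO11KO label), which describes the interaction from the same libraries and is no further test of it. The commonest class held 1034 genes that fell in the cultures labelled SPO11KO and had no called effect in STRA8KO. Another 838 genes rose only in the cultures labelled SPO11KO, 528 rose only in STRA8KO and 434 fell only in STRA8KO. Opposite effects were called for 625 genes, of which 417 rose in STRA8KO and fell in the cultures labelled SPO11KO and 208 did the reverse. In 856 genes both genotypes moved the same way but more in the cultures labelled SPO11KO, and in 668 more in STRA8KO. No NRRA effect was called in either genotype for the last 111. With total counts, genes that fell only in the cultures labelled SPO11KO became 651 and those that rose only there 1405, so the order of these classes rests on the scaling.

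Other class sizes moved as well. Under total counts those that fell only in STRA8KO became 692, and those that fell in STRA8KO and rose with the SPO11KO label became 388. The latter were 138 without STRA8KO Veh replicate 1. Genes that moved the same way but more with the SPO11KO label numbered 481 without STRA8KO Veh replicate 1, 551 without its replicate 2, 564 without STRA8KO NRRA replicate 1 and 558 without its replicate 2. With the DESeq2 Wald test, 346 rose only in STRA8KO and 243 rose there and fell with the SPO11KO label.

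**Figure D2:**
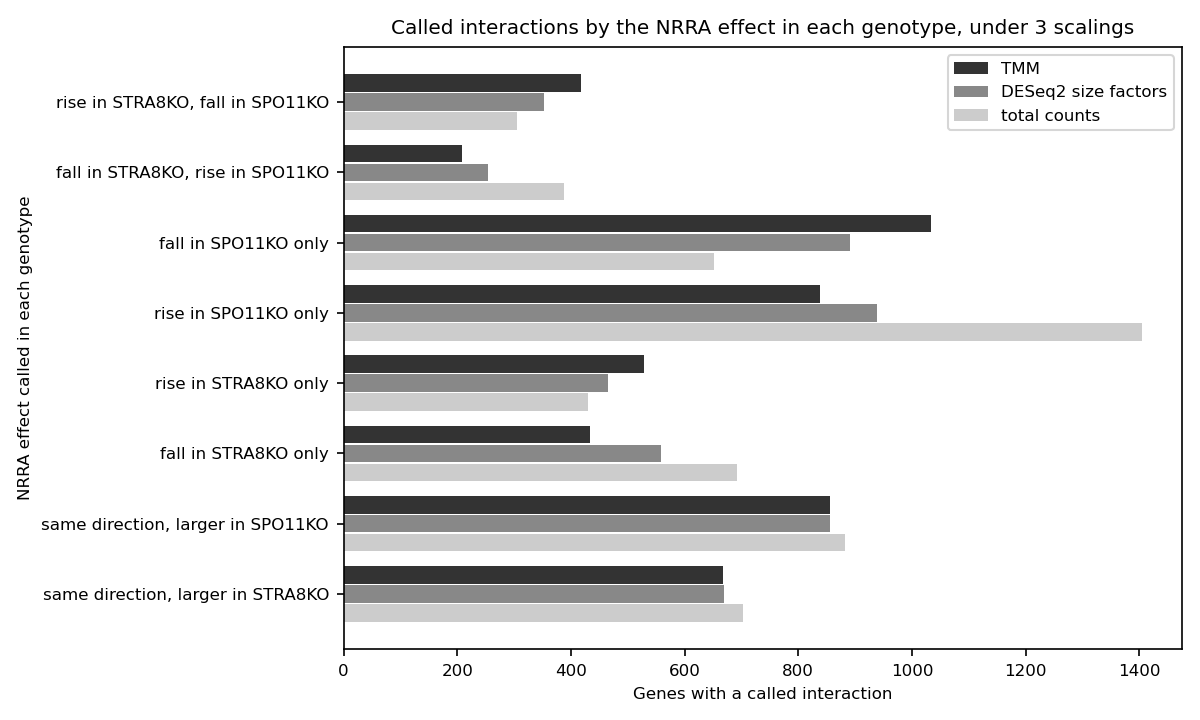
Bars give the number of genes with a called interaction in each class of NRRA effects, under TMM, DESeq2 size factors and total counts, and SPO11KO stands for cultures labelled so. Under total counts the class that rose only in SPO11KO grew from 838 to 1405 genes and the class that fell only in SPO11KO shrank from 1034 to 651.

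A call in 1 genotype alone was a poor guide to a difference between them. Of 6640 genes called under NRRA in 1 genotype and not in the other, the interaction was called for 2834, and 57.3% had none. Of the 5502 genes called in both genotypes in the same direction, 1524 (27.7%) had a called interaction. Each of the 625 genes called in opposite directions had one. This was close to fixed in advance, because called effects of opposite sign add up in the interaction.

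The study named 11 genes as dependent on STRA8, with Dmc1, Hormad1, M1ap and Mei1 fully and the others partially so. Among these 11, 7 had a lower NRRA effect in STRA8KO by the interaction test and none a higher one. Of all tested genes, 10.1% were called lower. The list of 11 was taken up here with earlier results of these libraries known, so its direction is not independent evidence. Its median interaction was -0.50 (log2), against 0.01 for all tested genes, and it ran from -0.58 to -0.42 with single libraries omitted. Sycp3, a lateral element protein of the synaptonemal complex, had 6.08 and 7.15 CPM in STRA8KO Veh, then 14.3 and 12.3 CPM after its NRRA, 10.8 and 12 CPM in Veh labelled SPO11KO, and 51.8 and 50.3 in NRRA labelled SPO11KO. Both NRRA libraries labelled SPO11KO stood well above all others, and the STRA8KO NRRA libraries lay only just above the Veh libraries labelled SPO11KO. NRRA raised Sycp3 by 1.01 with the STRA8KO label and by 2.16 with the SPO11KO label (log2), an interaction of -1.15 (SE 0.155) with an edgeR adjusted p of 1.34e-07.

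Smc1b, the meiotic SMC1 subunit of cohesin, had 72.6 and 68.3 CPM in the Veh libraries of STRA8KO and 71.5 and 60.05 CPM in its NRRA libraries, against 128 and 139 CPM in Veh and 215 and 230 CPM in NRRA labelled SPO11KO. The STRA8KO groups overlapped, while the groups labelled SPO11KO did not. Its interaction was -0.84 (SE 0.0899, edgeR adjusted p = 1.78e-07). Dmc1, the meiotic recombinase, had levels of 7.47 and 8.21 CPM in Veh and 6.76 and 7.06 CPM in NRRA in STRA8KO, and of 10.8 and 13.4 CPM in Veh and 17.8 and 19 CPM in NRRA in the cultures labelled SPO11KO. It rose only in the cultures labelled SPO11KO, with an interaction of -0.78 (SE 0.173, edgeR adjusted p = 5.32e-04).

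Mei1, which is needed for meiotic DNA breaks, rose in both genotypes, by 1.02 with the STRA8KO and 1.92 with the SPO11KO label (log2). Its interaction was -0.91 (SE 0.246), and it was -0.73 and no longer called without STRA8KO Veh replicate 2. Ugt8a, a lipid galactosyltransferase, had an interaction of -0.89 (SE 0.21). Meioc, a partner of YTHDC2 in keeping the meiotic program going, had -0.50 (SE 0.139), or -0.43 without a call when STRA8KO NRRA replicate 2 was left out. Stag3, a meiotic cohesin subunit, rose in both genotypes, by 0.84 and 1.14 (log2), with an interaction of -0.30 (SE 0.0585). The 4 members without a call were Hormad1 (0.20), Sycp1 (0.07), Sycp2 (0.05) and M1ap (-0.17). Sycp1 and Sycp2 took the other sign, and M1ap (-0.27) was called, under total counts. In its comparison with wild-type cultures, the study reports that NRRA raised Dmc1, Mei1, Stag3, Sycp2 and Sycp3 in wild type alone. Here Sycp3, Mei1 and Stag3 rose under NRRA in STRA8KO too, though less than with the SPO11KO label. Wild-type cultures were not analysed here, so the 2 comparisons are not the same.

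The promoters of these genes were examined because 7 members shared a direction and STRA8 is a DNA-binding factor. Sequences came from RefSeq on GRCm38.p6, as 300 bases that run from 250 before the start of a gene to 50 after it. They were found for 13238 of 20582 tested symbols, with 16764 promoters in all. CNCCTCAG, a motif bound by STRA8 in spermatocytes, was searched on both strands together with CACGTG, the E-box, and GGCGGGAA, an E2F-type site. The upstream 250 bases of 3 promoters are shown, in lower case with CACGTG or CNCCTCAG on either strand in capitals. They are Sycp3, which had the lowest interaction of the list (chr10:88459337-88459586, plus strand), Ugt8a, the called member with a CNCCTCAG match in its upstream bases (chr3:125938653-125938902, minus strand), and Smc1b, which held none of the 3 motifs (chr15:85131958-85132207, minus strand).
Sycp3: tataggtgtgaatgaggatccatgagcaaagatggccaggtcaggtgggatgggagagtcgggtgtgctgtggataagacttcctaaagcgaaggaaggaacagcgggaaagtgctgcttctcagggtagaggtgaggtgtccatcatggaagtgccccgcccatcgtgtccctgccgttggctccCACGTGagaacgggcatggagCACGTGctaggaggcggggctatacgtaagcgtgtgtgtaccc
Ugt8a: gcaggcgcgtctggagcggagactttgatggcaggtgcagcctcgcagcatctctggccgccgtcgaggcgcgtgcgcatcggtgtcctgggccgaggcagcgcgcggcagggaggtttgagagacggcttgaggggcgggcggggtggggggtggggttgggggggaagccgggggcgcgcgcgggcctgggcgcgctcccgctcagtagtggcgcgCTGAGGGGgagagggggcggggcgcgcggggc
Smc1b: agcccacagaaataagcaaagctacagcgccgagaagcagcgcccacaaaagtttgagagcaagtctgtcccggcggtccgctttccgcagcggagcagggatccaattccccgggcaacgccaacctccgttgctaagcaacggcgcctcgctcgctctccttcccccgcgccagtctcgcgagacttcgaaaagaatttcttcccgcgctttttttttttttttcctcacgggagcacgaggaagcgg
In Sycp3 the capitals are 2 copies of CACGTG, which begin 64 and 43 bases before the start. In Ugt8a they are 1 copy of CNCCTCAG on the opposite strand, which begins 32 bases before the start. No match overlapped another.

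Over the 12 promoters of the 11 genes, 3 held CNCCTCAG (M1ap, Sycp1 and Ugt8a), 5 held CACGTG (both promoters of Hormad1, Stag3, Sycp1 and Sycp3) and 2 held GGCGGGAA (both of Hormad1). The promoters of Hormad1 overlap almost fully, so their matches are the same sites counted again. Among members with a called interaction, only Stag3 and Sycp3 held CACGTG, only Ugt8a held CNCCTCAG and none held GGCGGGAA. Among all 16764 promoters of tested genes, CNCCTCAG occurred in 9.05%, CACGTG in 9.36% and GGCGGGAA in 3.61%. Among the 2102 promoters of genes with a called lower interaction the shares were 10.6%, 10.8% and 3.14%. Among the 2924 of genes with a called higher interaction they were 8.14%, 9.99% and 4.34%. In the last 150 bases of the window, CNCCTCAG was found in 4.89% of all promoters, 5.23% of those of lower genes and 4.82% of those of higher genes. A match is a string of letters and does not show binding.

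Meiotic genes were also described by role, in lists that share members with the genes named as dependent on STRA8. Meioc is among the entry regulators, and Smc1b, Stag3, Hormad1, Sycp1, Sycp2 and Sycp3 are in the cohesin list. Mei1 is among the break genes and Dmc1 among those of strand exchange. The called shares were 30%, 35.7%, 44.4% and 11.8% in this order, against 24.7% of all tested genes. Among 10 tested entry regulators, 1 was called higher and 2 lower, against 24.7% called of all tested genes. Their median of -0.03 ran from -0.28 without SPO11KO Veh replicate 2 to 0.06 without SPO11KO NRRA replicate 2. Rbm46, an RNA-binding protein needed for meiotic entry, had 21.6 and 21.5 CPM in STRA8KO Veh, then 30.2 and 28 CPM after its NRRA, 31.8 and 36.8 CPM in Veh labelled SPO11KO, and 85 and 89.3 in NRRA labelled SPO11KO. Both genotypes rose, and the NRRA libraries labelled SPO11KO were the highest, with an interaction of -0.91 (SE 0.102). Among 14 genes of cohesin, axis and synaptonemal complex, 2 were higher and 3 lower, and the lower ones were again Smc1b, Stag3 and Sycp3. The median of the 14 was 0.01, and -0.08 under total counts. It ran from -0.10 without SPO11KO Veh replicate 2 to 0.09 without SPO11KO Veh replicate 1.

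Rec8, the meiotic kleisin of cohesin, went against Sycp3 and Smc1b. It had 5.14 and 3.37 CPM in the Veh libraries of STRA8KO and 55.2 and 61.3 CPM in its NRRA libraries, against 13.2 and 12 CPM in Veh and 69.3 and 69.3 CPM in NRRA labelled SPO11KO. STRA8KO started lower and stayed below the cultures labelled SPO11KO under NRRA, but by a smaller ratio than in Veh. The rise was 3.76 in STRA8KO and 2.46 with the SPO11KO label (log2). The interaction was 1.30 (SE 0.153, edgeR adjusted p = 7.56e-09), between 1.04 and 1.65 when each library was left out.

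Of 9 genes of double-strand break formation, 4 were lower (against 10.1% of all tested genes), none was higher, and the median was -0.27. Besides Mei1 these were Prdm9, the histone methyltransferase that places the breaks (-0.90), Mei4, a break factor (-0.82), and Zcwpw1, a reader of PRDM9 marks (-0.33). In these 3 genes NRRA raised the level in the cultures labelled SPO11KO, and in STRA8KO an effect was called for Zcwpw1 alone, at 0.24 (log2). Mei4 had at most 6.58 CPM, and its call was lost in 6 of 15 alternatives. They were the DESeq2 Wald test and the omission of STRA8KO Veh replicate 1 or 2, STRA8KO NRRA replicate 2, SPO11KO Veh replicate 2 or SPO11KO NRRA replicate 2, with values from -0.85 to -0.54. Prdm9 was not called by the DESeq2 Wald test (-0.93). Among 17 tested genes of strand exchange and crossover, Dmc1 and Tex11, an X-linked crossover factor (-0.46), were the 2 called, both lower.

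Differentiation genes were split. Of 14 tested, 5 were higher and 5 lower (against 14.6% and 10.1% of all tested genes), and the median was -0.13, or from -0.17 without SPO11KO Veh replicate 1 to -0.05 without SPO11KO Veh replicate 2. Kit, the receptor that marks differentiating spermatogonia, had levels of 4.92 and 5.49 CPM in Veh and 181 and 173 CPM in NRRA in STRA8KO, and of 5.31 and 5.31 CPM in Veh and 324 and 339 CPM in NRRA in the cultures labelled SPO11KO. NRRA raised it strongly in both genotypes, by 5.09 and 5.96 (log2), with the smaller rise in STRA8KO (-0.87, SE 0.132, edgeR adjusted p = 1.61e-06). Sox3, a transcription factor of differentiating spermatogonia, likewise rose in both but less in STRA8KO (-1.10). Dmrtb1, also called DMRT6, which acts at the step from spermatogonium to meiosis, rose by 0.52 in STRA8KO but fell by 0.94 in the cultures labelled SPO11KO (log2), with an interaction of 1.47 (SE 0.188). Rarg, the receptor for retinoic acid of spermatogonia, rose in both, and its interaction was -0.07 without a call.

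Genes of the retinoic acid response moved under NRRA in both genotypes, and the design has no arm with retinoic acid alone. Of 15 retinoid genes, 11 were called higher under NRRA in each genotype, against 21.4% of all tested genes in STRA8KO and 24.7% with the SPO11KO label. Of the 15, 6 had a higher and 2 a lower interaction (against 14.6% and 10.1% of all tested genes), with a median of 0.35. Rarb, a receptor gene that is a direct target of retinoic acid, had 0.537 and 0.655 CPM in STRA8KO Veh, then 25.6 and 27.1 CPM after its NRRA, 0.253 and 0.218 CPM in Veh labelled SPO11KO, and 10.3 and 12.9 in NRRA labelled SPO11KO. All NRRA libraries were far above all Veh libraries, and no interaction was called (-0.13, edgeR adjusted p = 0.897). Dhrs3, which reduces retinal, rose in both genotypes with an interaction of 0.60 (SE 0.124). Aldh1a2, which makes retinoic acid, rose only in the cultures labelled SPO11KO, by 0.88 (log2), with an interaction of -0.90 (SE 0.175).

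Of the 25 gene lists, the GDNF pathway had the highest median interaction. All 12 genes of the GDNF receptor and its targets had a called higher interaction, 11 of them of at least 2-fold, against 14.6% of all tested genes. Their median was 2.56 (log2), and it was 2.47 under total counts and between 2.31 and 2.61 with each library left out. NRRA lowered all 12 with the SPO11KO label (against 25.5% of all tested genes), where the median effect was -2.94. In STRA8KO it lowered 9 and raised 2 (against 20.1% and 21.4% of all tested genes), with a median of -0.72.

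Gfra1 and Ret encode the receptor subunits. Gfra1 had 64 and 63.5 CPM in the Veh libraries of STRA8KO and 110 and 112 CPM in its NRRA libraries, against 129 and 134 CPM in Veh and 35.4 and 37.4 CPM in NRRA labelled SPO11KO. Its level went up in STRA8KO and down in the cultures labelled SPO11KO, with no overlap of groups within a genotype, and its interaction was 2.65 (SE 0.0723, edgeR adjusted p = 1.72e-28). Ret fell in both genotypes, by 0.69 with the STRA8KO and 2.85 with the SPO11KO label (log2).

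Etv5, a GDNF- and FGF-induced transcription factor of self-renewing spermatogonia, had levels of 143 and 134 CPM in Veh and 92.4 and 100 CPM in NRRA in STRA8KO, and of 242 and 243 CPM in Veh and 23.5 and 24.1 CPM in NRRA in the cultures labelled SPO11KO. Its Veh level was higher in the cultures labelled SPO11KO and its NRRA level was higher in STRA8KO, with an interaction of 2.82 (SE 0.0725, edgeR adjusted p = 2.53e-29). Egr3, an immediate early transcription factor, had 23.7 and 21 CPM in STRA8KO Veh, then 8.4 and 9.65 CPM after its NRRA, 59.9 and 56 CPM in Veh labelled SPO11KO, and 1.16 and 2.12 in NRRA labelled SPO11KO. Its interaction was 3.81 (SE 0.194). Lhx1 (2.95) and T, which encodes brachyury (4.62), fell in both genotypes but much further in the cultures labelled SPO11KO. T had at most 5.57 CPM, and its interaction ran from 4.04 to 5.46 with each library left out. The smallest value of the list was that of Pou3f1, a POU factor downstream of GDNF (0.28), whose call was lost under total counts (0.19), without the filter (0.22) and without SPO11KO Veh replicate 1 (0.17).

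Identity factors of undifferentiated spermatogonia also had mostly positive interactions, but unlike the GDNF genes most of them rose in STRA8KO. Of 15 tested, 13 had a called higher interaction (against 14.6% of all tested genes), 11 of at least 2-fold, none a lower one, and the median was 2.16 (2.07 under total counts). In STRA8KO 11 were called higher and 2 lower under NRRA (against 21.4% and 20.1% of all tested genes). In the cultures labelled SPO11KO 2 were higher and 10 lower (against 24.7% and 25.5%). Nanos2, an RNA-binding protein of stem cells, had 1.97 and 1.71 CPM in the Veh libraries of STRA8KO and 1.64 and 2.08 CPM in its NRRA libraries, against 7.79 and 8.79 CPM in Veh and 0.232 and 0.648 CPM in NRRA labelled SPO11KO. It fell only in the cultures labelled SPO11KO, with an interaction of 4.19 (SE 0.419), between 3.67 and 5.15 with each library left out. Nanos3 had levels of 9.3 and 9.92 CPM in Veh and 14.6 and 15.7 CPM in NRRA in STRA8KO, and of 12.9 and 12.2 CPM in Veh and 2.89 and 1.77 CPM in NRRA in the cultures labelled SPO11KO. It rose in STRA8KO and fell in the cultures labelled SPO11KO (3.11, SE 0.196, edgeR adjusted p = 2.32e-16).

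Pax7, which marks a rare stem cell state (3.62), also rose in STRA8KO and fell in the cultures labelled SPO11KO, while Foxc2 (3.33) fell only in the latter. The inhibitor Id4 (2.70), a gene of stem spermatogonia, moved as Pax7 did. The 2 members without a call were Foxo1 (-0.13) and Taf4b (-0.01), which acts in germ cell maintenance, and Foxo1 was called lower under total counts (-0.22) and without the filter (-0.19). Levels in Veh did not start equal. Ret, Etv5, Gfra1 and Nanos2 were each higher in both Veh libraries labelled SPO11KO than in both STRA8KO Veh libraries, and the summed share of the pan-germ genes was higher there too. The interaction compares changes and not levels.

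FGF receptors and the feedback genes of ERK signalling fell in most cases in both genotypes, and less in STRA8KO. Of 16 tested, 12 were higher by the interaction and 1 lower (against 14.6% and 10.1% of all tested genes), and the median was 0.36. NRRA lowered 12 with the STRA8KO and 13 with the SPO11KO label (against 20.1% and 25.5% of all tested genes). Dusp6, a phosphatase that switches off ERK, had 256 and 233 CPM in STRA8KO Veh, then 45.6 and 48.4 CPM after its NRRA, 193 and 189 CPM in Veh labelled SPO11KO, and 10.3 and 8.63 in NRRA labelled SPO11KO. It fell in both genotypes, with the lowest level in NRRA labelled SPO11KO, and its interaction was 1.96 (SE 0.091, edgeR adjusted p = 1.37e-20). Spry4, an inhibitor of receptor signalling (1.97), Etv4 (1.94) and Egr1 (1.44) were also called higher. Fgfr3, a receptor, was the lower one (-1.43), since it rose in the cultures labelled SPO11KO and not in STRA8KO. Fgfr2 rose in both and had no call (-0.13).

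**Figure D3:**
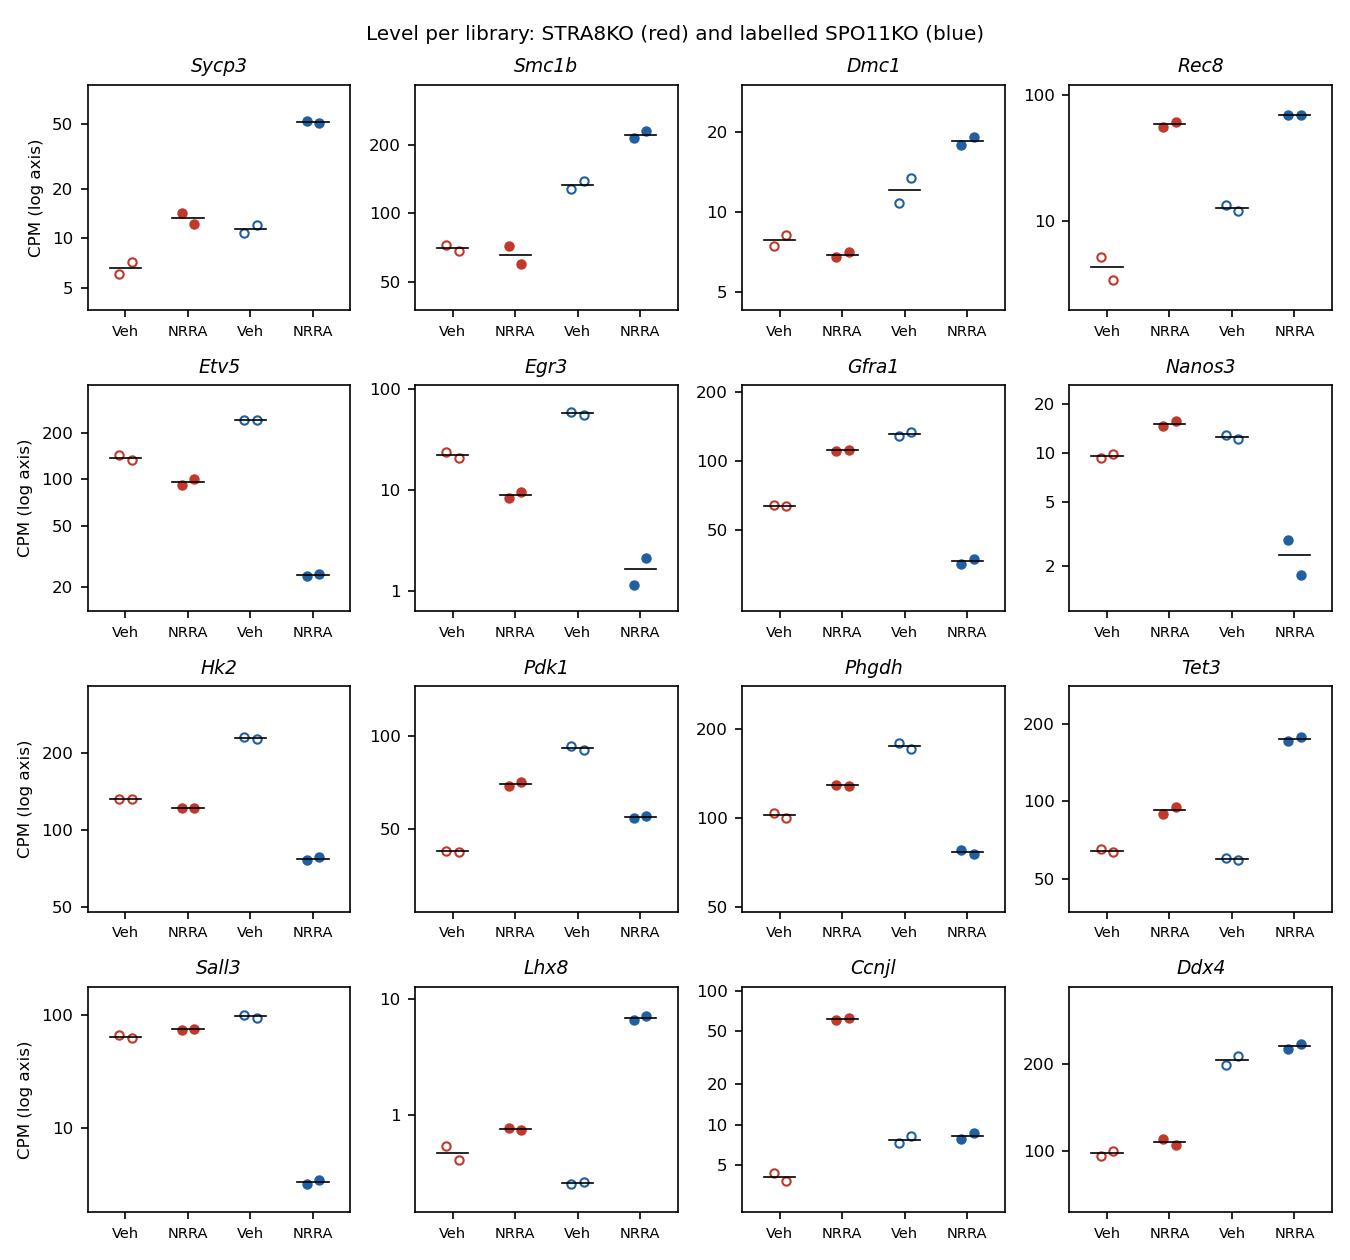
Each panel shows 1 gene, with the level in each library (points, CPM, log axis) and the mean of the 2 libraries of a group (line), open for Veh and filled for NRRA. Etv5 and Egr3 sit lowest in NRRA labelled SPO11KO, and Sycp3 and Tet3 sit highest there. By ratio, Rec8 differs less between the genotypes under NRRA than in Veh.

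The single genes with the largest interactions were drawn by class. Sall3, a zinc finger factor, had 66.8 and 62.4 CPM in the Veh libraries of STRA8KO and 74.3 and 76 CPM in its NRRA libraries, against 100 and 94.9 CPM in Veh and 3.2 and 3.45 CPM in NRRA labelled SPO11KO. Only the NRRA libraries labelled SPO11KO were low, and the interaction was 5.09 (SE 0.105). Trf, which encodes transferrin, had levels of 44.3 and 42.3 CPM in Veh and 77 and 79 CPM in NRRA in STRA8KO, and of 106 and 98.9 CPM in Veh and 7.56 and 7.03 CPM in NRRA in the cultures labelled SPO11KO. It rose in STRA8KO by 0.85 and fell in the cultures labelled SPO11KO by 3.81 (log2), with an interaction of 4.66 (SE 0.0947). Both lie among the 417 genes with a rise in STRA8KO and a fall in the other cultures.

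Lhx8, a LIM homeobox factor known from early oocytes, was the most negative gene that rose only in the cultures labelled SPO11KO. It had 0.537 and 0.403 CPM in STRA8KO Veh, then 0.772 and 0.738 CPM after its NRRA, 0.253 and 0.261 CPM in Veh labelled SPO11KO, and 6.64 and 7.2 in NRRA labelled SPO11KO. The other 6 libraries were all under 1 CPM, and the interaction was -4.06 (SE 0.669). Ccno, a cyclin-like protein of multiciliated cells (-3.22), and Osbp2, an oxysterol-binding protein (-3.07), fell in STRA8KO and rose in the cultures labelled SPO11KO.

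Genes that responded in STRA8KO alone were also clear. Ccnjl, a cyclin J-like gene, had 4.38 and 3.83 CPM in the Veh libraries of STRA8KO and 60.5 and 61.9 CPM in its NRRA libraries, against 7.33 and 8.18 CPM in Veh and 7.83 and 8.7 CPM in NRRA labelled SPO11KO. The STRA8KO NRRA libraries stood apart from all others, and the interaction was 3.79 (SE 0.168, edgeR adjusted p = 2.37e-21). Gdap1l1 did the same, from 1.25 and 0.806 to 18.3 and 15.6 CPM in STRA8KO and with no called effect in the cultures labelled SPO11KO (3.66, SE 0.426). Sema7a, a membrane semaphorin, had levels of 143 and 134 CPM in Veh and 5.94 and 7.62 CPM in NRRA in STRA8KO, and of 45.6 and 41.3 CPM in Veh and 15 and 13.6 CPM in NRRA in the cultures labelled SPO11KO. It fell in both genotypes, but by 4.35 in STRA8KO against 1.61 in the other cultures (log2), with an interaction of -2.74 (SE 0.125).

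Metabolic genes leaned to one side. Of 19 glycolysis genes, 16 had a called higher interaction (against 14.6% of all tested genes) and none a lower one, with a median of 0.53, or 0.43 under total counts. NRRA lowered all 19 in the cultures labelled SPO11KO (against 25.5% of all tested genes). In STRA8KO it lowered 15 and raised 2 (against 20.1% and 21.4%). Hk2, an inducible hexokinase, had 133 and 132 CPM in STRA8KO Veh, then 122 and 122 CPM after its NRRA, 230 and 227 CPM in Veh labelled SPO11KO, and 76 and 78.4 in NRRA labelled SPO11KO. The fall was small in STRA8KO and large in the cultures labelled SPO11KO (1.44, SE 0.0617, edgeR adjusted p = 8.14e-22). Pdk1, the kinase that holds back pyruvate dehydrogenase, had 42.6 and 42.2 CPM in the Veh libraries of STRA8KO and 68.9 and 70.9 CPM in its NRRA libraries, against 92.9 and 89.98 CPM in Veh and 54.3 and 55.2 CPM in NRRA labelled SPO11KO. It rose in STRA8KO and fell in the cultures labelled SPO11KO (1.46, SE 0.0766). The glucose transporter genes Slc2a3 (0.97) and Slc2a1 (0.74) fell in both, and less in STRA8KO. Pfkm (-0.03) and Hk1 (0.07) had no called interaction, and Hk1 took the other sign under total counts (-0.03).

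Of 21 genes of the ATF4 amino acid response, 14 were higher by the interaction and 1 lower (against 14.6% and 10.1% of all tested genes), with a median of 0.31. Phgdh, the first enzyme of serine synthesis, had levels of 104 and 100 CPM in Veh and 130 and 128 CPM in NRRA in STRA8KO, and of 179 and 171 CPM in Veh and 77.9 and 75.5 CPM in NRRA in the cultures labelled SPO11KO. It rose in STRA8KO and fell in the cultures labelled SPO11KO, with an interaction of 1.53 (SE 0.0651). Ddit4, an inhibitor of mTORC1 (1.02), and Shmt2, a mitochondrial serine enzyme (0.81), fell in both, and less in STRA8KO. The lower one was Slc7a11, the cystine transporter (-0.82), which fell in both genotypes and further in STRA8KO.

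Of 20 genes of cholesterol metabolism, 13 were higher and 2 lower (against 14.6% and 10.1% of all tested genes), with a median of 0.28. Hmgcs1 (0.70), an early step of the pathway, fell further in the cultures labelled SPO11KO, and Dhcr7 (0.74), its last step, rose in STRA8KO and fell in the other cultures.

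DNA replication genes also leaned to the higher side, with 11 of 26 higher and 1 lower and a median of 0.14, or 0.05 under total counts. Of all tested genes, 14.6% were called higher and 10.1% lower. Pola1, a subunit of DNA polymerase alpha, had 14.3 and 14.8 CPM in the Veh libraries of STRA8KO and 24.9 and 24.1 CPM in its NRRA libraries, against 28.5 and 30.2 CPM in Veh and 22.1 and 25.7 CPM in NRRA labelled SPO11KO. It rose in STRA8KO and fell in the cultures labelled SPO11KO (1.05, SE 0.12). Its partner Prim1 (0.97) moved the same way, and Pcna, the sliding clamp (0.57), fell only in the cultures labelled SPO11KO. The 18 mitosis genes did not share this, with 2 higher and 1 lower and a median of 0.03 (-0.06 under total counts, and from -0.01 without SPO11KO NRRA replicate 1 to 0.08 without SPO11KO NRRA replicate 2). Mki67 was the lower one (-0.29), since it fell further in STRA8KO.

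Genes of chromatin and DNA methylation split by member. Tet3, a TET dioxygenase that oxidizes 5-methylcytosine, had levels of 65 and 63.4 CPM in Veh and 89.1 and 95 CPM in NRRA in STRA8KO, and of 60.2 and 59 CPM in Veh and 172 and 177 CPM in NRRA in the cultures labelled SPO11KO. It rose in both genotypes, and more in the cultures labelled SPO11KO (-1.03, SE 0.0706, edgeR adjusted p = 2.90e-15). Tet1 had 3.89 and 4.73 CPM in STRA8KO Veh, then 9.56 and 6.46 CPM after its NRRA, 2.4 and 2.87 CPM in Veh labelled SPO11KO, and 2.05 and 1.94 in NRRA labelled SPO11KO. It rose in STRA8KO by 0.89 (log2) with no called effect in the other cultures, and its interaction was of the opposite sign (1.30, SE 0.301). Dnmt3b, a de novo methyltransferase, rose in both and more in the cultures labelled SPO11KO (-0.50), while Dnmt1, the maintenance enzyme, had no call (-0.04) except under total counts (-0.14). PRC1.6 is the Polycomb complex that holds meiotic genes silent in other cells. Of its 10 tested genes, 30% had a called interaction, near the 24.7% of all tested genes. They were Pcgf6 (0.64), E2f6 (0.45) and Cbx3 (0.41), all higher. NRRA lowered these 3 in the cultures labelled SPO11KO, and raised Pcgf6 and Cbx3 in STRA8KO.

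All 18 interferon-stimulated genes rose in both genotypes, against 21.4% of all tested genes in STRA8KO and 24.7% with the SPO11KO label. By the interaction 5 rose more in STRA8KO, while none rose less. The called share was 27.8%, near the 24.7% of all tested genes. Gbp2, an interferon-induced GTPase, had 37.6 and 44.7 CPM in the Veh libraries of STRA8KO and 132 and 133 CPM in its NRRA libraries, against 47 and 51.1 CPM in Veh and 58 and 69.9 CPM in NRRA labelled SPO11KO. Its interaction was 1.30 (SE 0.12), and that of its relative Gbp3 was 0.90. Autophagy and lysosome genes had a median of 0.07, or from 0.01 without STRA8KO Veh replicate 2 to 0.08 without SPO11KO Veh replicate 2. Of these 18 genes, 2 were higher and 2 lower (22.2% called, near the 24.7% of all tested genes). Of 13 mitochondrially encoded subunits, 4 were higher and 1 lower (38.5% called, against 24.7% of all tested genes), with a median of 0.12 that ran from 0.01 without SPO11KO Veh replicate 2 to 0.22 without SPO11KO NRRA replicate 2. Of 13 tested neuron-type genes, 3 were higher and 2 lower (38.5% called). Nefm, a neurofilament, had levels of 98.3 and 96.5 CPM in Veh and 20.8 and 18.8 CPM in NRRA in STRA8KO, and of 215 and 221 CPM in Veh and 4.13 and 4.16 CPM in NRRA in the cultures labelled SPO11KO, with an interaction of 3.41 (SE 0.107), and the transcription factor Fev (3.33) fell in both genotypes in the same way. Map2 went the other way (-1.74), because it rose only in the cultures labelled SPO11KO.

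**Figure D4:**
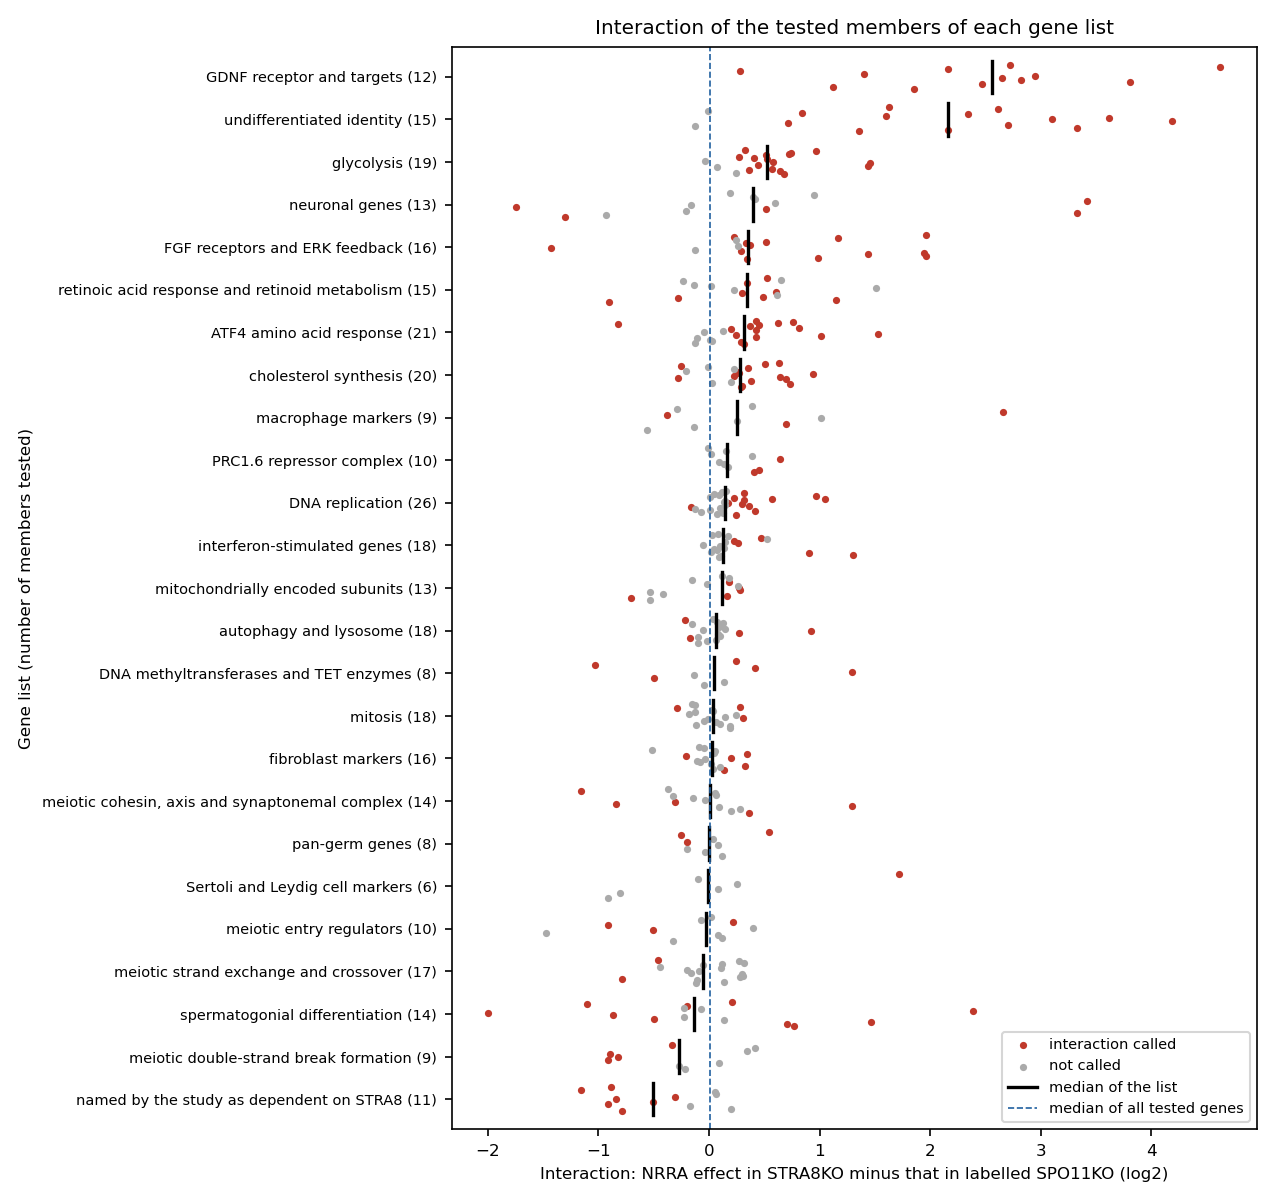
Each point is a tested gene, placed by its interaction (log2), in the list named on the vertical axis, with the number of tested members in parentheses, and red points had a called interaction. Black bars are list medians, which run from -0.50 for genes named as dependent on STRA8 to 2.56 for the GDNF receptor and its targets, and the dashed line is the median of all tested genes, 0.01.

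The germ cell and fibroblast markers had median interactions near that of all genes. The 8 pan-germ genes had a median of 0.00 and a range of -0.26 to 0.54, with 1 higher and 2 lower, and Ddx4, the germ cell helicase, had 96.7 and 100 CPM in STRA8KO Veh, then 110 and 105 CPM after its NRRA, 198 and 212 CPM in Veh labelled SPO11KO, and 225 and 234 in NRRA labelled SPO11KO and an interaction of -0.04. The 16 fibroblast markers had a median of 0.03 and a range of -0.52 to 0.34. Of these, Pdgfra (0.34), Col5a1 (0.33), Lox (0.20) and Col1a1 (0.14) were higher and Lum (-0.21) lower, and the calls of the last 3 were lost under some alternatives. Lum was lost without STRA8KO NRRA replicate 2 (-0.14) or SPO11KO Veh replicate 1 (-0.15), Lox under total counts (0.10) and without the filter (0.13), and Col1a1 in 8 alternatives, at 0.05 to 0.13. Under total counts the median was -0.06 for fibroblast markers and -0.09 for pan-germ genes. The called shares were 37.5% of pan-germ genes and 31.25% of fibroblast markers, against 24.7% of all tested genes. The 7 called genes named as dependent on STRA8 and 11 of the 12 GDNF genes lay outside the pan-germ range, Stag3 (-0.30) only just. The 7 were picked by their call, so their place was partly fixed in advance. The uncalled members of that list, Hormad1, Sycp1, Sycp2 and M1ap, lay inside the range. Pan-germ genes mark germ cells of all stages, so their range cannot show a shift between stages. The part of such a shift was not tested.

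Other testis cell types left few counts. The macrophage markers held between 0.00387% and 0.00618% of the counts of a library. Of 9 tested, Mrc1 (2.66, from at most 2.22 CPM) and Cd68 (0.70) were called higher and Lyz2 (-0.38) lower (33.3% called, against 24.7% of all tested genes). The call of Cd68 was lost with the DESeq2 Wald test (0.68), without STRA8KO NRRA replicate 2 (0.66) and without SPO11KO NRRA replicate 1 (0.54). That of Lyz2 was lost with the DESeq2 Wald test and without STRA8KO Veh replicate 1, STRA8KO NRRA replicate 2, SPO11KO Veh replicate 1 or 2 or SPO11KO NRRA replicate 1, at -0.41 to -0.32. The median of all 9, 0.25, ran from -0.36 without SPO11KO NRRA replicate 2 to 0.54 without SPO11KO NRRA replicate 1. Of 10 markers of Sertoli and Leydig cells, Amh, Cldn11, Fshr and Insl3 did not pass the filter, and Wt1 was the 1 with a call (1.71), since it rose in STRA8KO from 3.98 and 3.68 to 12 and 12 CPM and did not change detectably in the other cultures. The part of these cells, and of the differing shares of fibroblast and germ cell RNA, in the results was not tested.

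Whether a gene was called depended on its level. The share called was 7.03% among the lowest of 4 equal bins of average level and 41.6% among the highest, so low genes without a call may differ by amounts that this depth did not show. Called genes made up 30.2% of 15489 protein-coding genes, 11.4% of 2697 long noncoding RNA genes and 3.74% of 1524 pseudogenes. Among the autosomes the share ran from 21.6% on chromosome 13 to 29.0% on chromosome 11. On the X chromosome it was 22.2% of 762 genes, with 79 higher and 90 lower and a median interaction of -0.04, and of 12 tested genes on the Y chromosome none was called.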

How the data were processed

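RNA-seq of 8 mouse SSC culture libraries was analysed. The authors deposited 1 table of raw read counts per gene, with no normalization, and the submitters' processing notes name bcl2fastq, STAR 2.6.1c, featureCounts 1.6.4 and the mm10 build. The annotation release and the strand setting of the counting are not given in the sources used here, so reads of overlapping antisense genes may not be told apart. Groups came from the source names, since the treatment protocol field reads NRRA for the Veh samples too.

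Counts were filtered with filterByExpr, scaled by TMM and fitted with edgeR 4.0.16 (quasi-likelihood F test, R 4.3.3, limma 3.58.1) in 1 model with the 4 groups, from which both NRRA effects and their difference, the interaction, were drawn. Tests are two-sided, and a gene was called at a Benjamini-Hochberg adjusted p under 0.05 over all 20588 tested genes. Levels are CPM on TMM-scaled library sizes and effects are log2. SE is a standard error derived from the test, as the absolute effect over the square root of the quasi-likelihood F statistic. The scripts were tested on simulated data. The floor of 3 counts covers counting error only, while the SE also takes in the spread between replicate libraries.

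The question, the 25 gene lists and the tests were chosen with earlier results of these data known. Named genes were the 3 largest interactions in each class (average log2 CPM of at least 1, no group at the floor), and in each list up to 4 called members with the largest and 2 with the smallest interaction, plus the list named as dependent on STRA8. Gfra1, Ret, Id4, Kit, Fgfr3 and Col1a1 fall outside this rule and were chosen after their values were seen. List members below the filter were Spata22, C1qb, Amh, Cldn11, Fshr, Insl3 and Stmn3, and Bend2 was not analysed here. Some genes that the rule selected are not reported here. Alternatives were DESeq2 size factors, total counts, other filters, the DESeq2 1.42.0 Wald test, the legacy quasi-likelihood method, a replicate block, stricter thresholds and leaving out each library.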

Additional observations from a re-analysis of the deposited data

Results flagged for a closer look

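Each value here is an interaction, so it is a difference between the genotypes in the same NRRA contrast that was tested directly. Over all tested genes there were 5094 with a call. Genes that rose in STRA8KO and fell in the cultures labelled SPO11KO were led by Pcdh12, a protocadherin (5.78, between 5.14 and 7.22 with each library left out, from 2 and 10 counts in NRRA labelled SPO11KO), Sall3 (5.09) and Trf (4.66). The reverse was led by Ccno (-3.22), Osbp2 (-3.07) and Ndst3 (-1.93).

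Genes that fell only in the cultures labelled SPO11KO were led by Nanos2 (4.19), Lyve1 (3.76) and Col13a1 (3.64), and those that rose only there by genes that included Lhx8 (-4.06) and Klhl32 (-2.43). Klhl32 was -2.03 and no longer called without STRA8KO Veh replicate 1. Genes that rose only in STRA8KO were led by Ccnjl (3.79), Gdap1l1 (3.66) and Cpm (2.74), and those that fell only there by Atg9b (-1.99), Notum (-1.92) and Cdh5 (-1.76). Where both genotypes moved the same way, the effect was larger in the cultures labelled SPO11KO for T (4.62), Egr3 (3.81) and Nefm (3.41), and larger in STRA8KO for Tm4sf5 (3.12), Sema7a (-2.74) and Oprd1 (2.54).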

How the results depend on the processing

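With 2 libraries a group, low genes without a call may still differ. Calls of the interaction were 3629 with the DESeq2 Wald test, of which 2002 were higher, and 3415 genes were lower with total counts. At an adjusted p under 0.01, 1300 genes were lower. A 2-fold limit left 1158 interactions (800 higher, 358 lower), 2175 STRA8KO effects of NRRA (1432 and 743) and 2556 SPO11KO effects (1419 and 1137). Of 102 genes with a call that were followed singly, 91 kept it in all the alternatives run for single genes. Most of the 102 were chosen for a large interaction, so they do not stand for all calls. Of all 5094 calls, 3605 were also made by the DESeq2 Wald test and 4239 under total counts.

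Signs turned only for uncalled genes: under total counts Sycp1 (-0.0266), Sycp2 (-0.0408, and -0.0105 without the filter) and Hk1 (-0.025), and with 1 library left out Stra8 (-2.84 to 1.31), Sycp1 (-0.0223 to 0.15), Sycp2 (-0.11 to 0.20), Fgfr2 (-0.29 to 0.0307), Rarb (-0.28 to 0.0443), Ddx4 (-0.0865 to 0.0119) and Taf4b (-0.0824 to 0.0643). The cause was not tested.

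With the replicate block 5075 genes were called, 3000 higher and 2075 lower, and 5024 of them were called without it. Replicate differences of the groups correlated between -0.071 and 0.138 across genes, with 1 of 6 pairs of groups over 0.1, so the numbers were not taken to pair the libraries.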
